A study of Homo sapiens with 9 samples.

Results

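The genes described here are 8 secreted inflammatory proteins and 2 proteins of the NF-κB pathway, picked by gene name: the chemokines CXCL8, CXCL1, CXCL2, CXCL3, CXCL5 and CCL20, the cytokines CSF3 and IL32, the NF-κB subunit NFKB2 and the inhibitor NFKBIA. All 10 were present among the 58735 genes of the deposited tables, and their transcripts were read in 9 RNA-Seq libraries. The control Huh-7 cells, an unedited human hepatoma line, gave 3 libraries. The Ako-3 cells gave 3 libraries and are 1 clone of Huh-7 in which exon 6 of APOB, the gene of the structural protein of VLDL and LDL, was cut with gRNA and Cas9 protein. The Mko-3 cells gave the other 3 libraries and are 1 clone of Huh-7 deficient in MTTP, the gene of the protein that transfers lipid to nascent apoB. According to the labels, all cells were kept in DMEM with 10% fetal bovine serum and then held overnight without serum. The labels call the libraries biological replicates. Each knockout is a single clone, and a difference between that clone and control cells that the edited gene does not cause cannot be told apart from the knockout.

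NF-κB is a family of dimeric transcription factors that resting cells keep inactive by binding to inhibitory IκB proteins. When receptors for TNF, interleukin-1 or bacterial products are engaged, the IκB kinase marks the inhibitor for destruction, and the freed dimers enter the nucleus and bind short DNA elements called κB sites. Among their target genes are neutrophil-attracting CXC chemokines, CCL20, and the genes of the pathway itself, including NFKBIA, so that the response limits its own length. Liver parenchymal cells make these chemokines in inflammation, and hepatoma lines are known to secrete CXCL8, which is also called interleukin-8.

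The sequences below show what most of these genes share next to their transcription start, a match to the letters of a κB site. RefSeq promoter windows on GRCh38.p14, from 250 bases before to 50 bases after the start, were found for 9 of the 10 genes. CSF3 was not matched. Each line gives 10 bases on either side of the match, read 5′ to 3′ along the gene's own strand, and the capitals mark the match. CXCL6, a chemokine gene of the same cluster that is not among the 10, is shown for comparison.
CXCL8, chr4:73740468-73740496, plus strand: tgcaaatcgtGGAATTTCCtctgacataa
CXCL1, chr4:73869304-73869333, plus strand: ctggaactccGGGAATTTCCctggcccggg
CXCL2, chr4:74099254-74099283, minus strand: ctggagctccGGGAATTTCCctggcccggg
CXCL3, chr4:74038749-74038778, minus strand: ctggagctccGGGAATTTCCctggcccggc
CXCL5, chr4:73998749-73998778, minus strand: catgagttcaGGGAATTTCCccagcatccc
CXCL6, chr4:73836578-73836607, plus strand: cctgagttcaGGGAATTTCCccagcatccc
NFKBIA, chr14:35404811-35404840, minus strand: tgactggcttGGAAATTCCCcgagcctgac
CCL20, chr2:227813753-227813782, plus strand: tgatcaatggGGAAAACCCCatgtggcaac
IL32, chr16:3065294-3065323, plus strand: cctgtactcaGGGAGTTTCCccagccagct
NFKB2, chr10:102394490-102394519, plus strand: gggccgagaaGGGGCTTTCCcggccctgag
NFKB2, chr10:102395674-102395703, plus strand: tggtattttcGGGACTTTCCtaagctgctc

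The 9 letters GGAATTTCC, searched on both strands, were found in the windows of CXCL1, CXCL2, CXCL3, CXCL5, CXCL8 and NFKBIA, which is 6 of the 9 genes with a window. These 9 genes have 12 windows, and 6 of the 12 held the letters. In all 35116 RefSeq windows of the same length, 0.461% held these letters. Here and below, a gene counts if any of its windows has a match, while the background shares are per window. A further G in front, a 10-letter form that overlaps the shorter one, was found in 5 of the 9 genes, all of these but CXCL8, and in 0.145% of all windows. The relaxed form, GGG and TTTCC with any 2 bases between them, covers the 10-letter form and was found in 8 of the 9 genes, again all but CXCL8, and in 1.91% of all windows. The general κB consensus, a looser form that overlaps the relaxed one, was found in the same 8 genes but in 11.3% of all windows, so that the background share depends strongly on the form searched. Most matches to the 3 narrower forms began between 77 and 99 bases before the start, while the match at the last of the 3 NFKB2 starts began 21 bases before it. In the NFKBIA and CCL20 windows the motif lies on the opposite strand and is printed as its reverse complement. For CXCL2, CXCL3, CXCL5, CXCL6, CXCL8, IL32 and CCL20 the gene models of the deposited tables begin further upstream than the RefSeq start. The genes were picked as chemokines and known NF-κB targets, so a share of κB matches above that of all windows is no independent result. A match is a description of letters and does not show that a factor was bound in these cells.

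**Figure D1:**
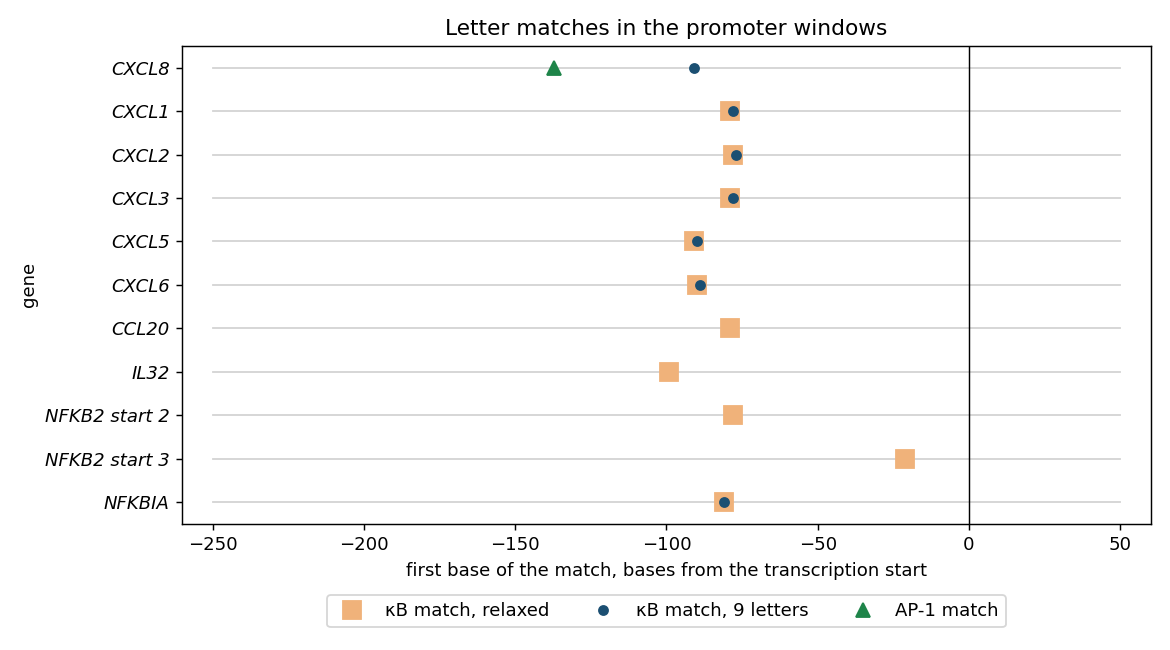
Position of letter matches in the RefSeq promoter windows, in bases from the transcription start, 1 line per start site that holds a match. Start sites without a match are not drawn. Squares stand for the relaxed κB form, circles for the 9-letter κB form and the triangle for the AP-1 form, and the squares and circles mostly lie between 77 and 99 bases before the start.

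The CXC promoters formed related pairs. Over 100 bases around the κB match, compared without gaps, CXCL1 and CXCL3 had 92 bases in common, CXCL1 and CXCL2 had 74, and CXCL2 and CXCL3 had 69. CXCL5 and CXCL6 had 90 in common. CXCL8 had 19 to 29 bases in common with the other 5. CXCL8 also held, as the only member, a match to the AP-1 letters TGANTCA, which were found in 7.71% of all windows. The AP-1 match is shown because AP-1 genes are described further on.
CXCL8, chr4:73740422-73740448, plus strand: ggaagtgtgaTGACTCAggtttgccct

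Total counts per library ranged from 14638727 to 20179760. APOB reached 224 ± 41.0 FPKM in control cells and 87.5 ± 6.1 FPKM in Ako-3 cells, and MTTP reached 116 ± 5.2 FPKM in control cells and 16.0 ± 0.66 FPKM in Mko-3 cells (SD, n = 3 each), so each clone had lower transcript of its own targeted gene. All 12 hepatocyte markers looked for were above 1 FPKM in every group. Their summed level was 5262 to 5431 FPKM in control, 6322 to 6605 in Ako-3 and 5159 to 5404 in Mko-3 libraries. Of 12 leukocyte markers, which bear on these genes because leukocytes make the same chemokines, CD68 and MPO had no count in any library and PTPRC had at most 2. LYZ and CD14 were expressed, and LYZ carried most of the summed leukocyte level of 151 to 164 FPKM in control, 187 to 204 in Ako-3 and 189 to 203 in Mko-3 libraries. Of the 12 leukocyte markers, 6 had counts in every control library, 6 in every Ako-3 library and 5 in every Mko-3 library. In each group 2 had a mean above 1 FPKM. The 12 stromal and endothelial markers summed to 10.6 to 12.1 FPKM in control, 14.8 to 15.7 in Ako-3 and 8.06 to 8.70 in Mko-3 libraries. KDR had no count, while 7 of the 12 had counts in every control library, 8 in every Ako-3 library and 9 in every Mko-3 library. A mean above 1 FPKM was reached by 1 of them in control, 1 in Ako-3 and 2 in Mko-3 cells. Mitochondrial transcripts took 5.52% to 6.17% of counts in control, 7.06% to 7.40% in Ako-3 and 5.75% to 5.82% in Mko-3 libraries. The hepatocyte and mitochondrial values were higher in all Ako-3 libraries than in all others, and their part in the results below was not tested. In bulk RNA, fewer cells making a transcript and less transcript per cell cannot be told apart.

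Per gene length, the levels of the 10 genes in control cells covered a wide range. CXCL5, a neutrophil chemokine, was the highest at 345 ± 37.8 FPKM (SD, n = 3), followed by CCL20, the ligand of the receptor CCR6, at 291 ± 6.56 FPKM. CXCL1 followed at 98.6 ± 10.3, IL32 at 74.4 ± 12.0 and CXCL8 at 52.0 ± 3.48 FPKM. NFKBIA had 42.2 ± 1.63, NFKB2 35.1 ± 3.10, CXCL2 23.1 ± 1.89 and CXCL3 8.03 ± 2.27 FPKM. CSF3, which encodes granulocyte colony-stimulating factor, was near the limit of detection at 0.365 ± 0.120 FPKM. No gene overlapped its neighbour in this order in any group, library by library. The order in Ako-3 cells differed in 1 place, with NFKBIA above CXCL8, and the order in Mko-3 cells also in 1 place, with CXCL2 above NFKB2.

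**Figure D2:**
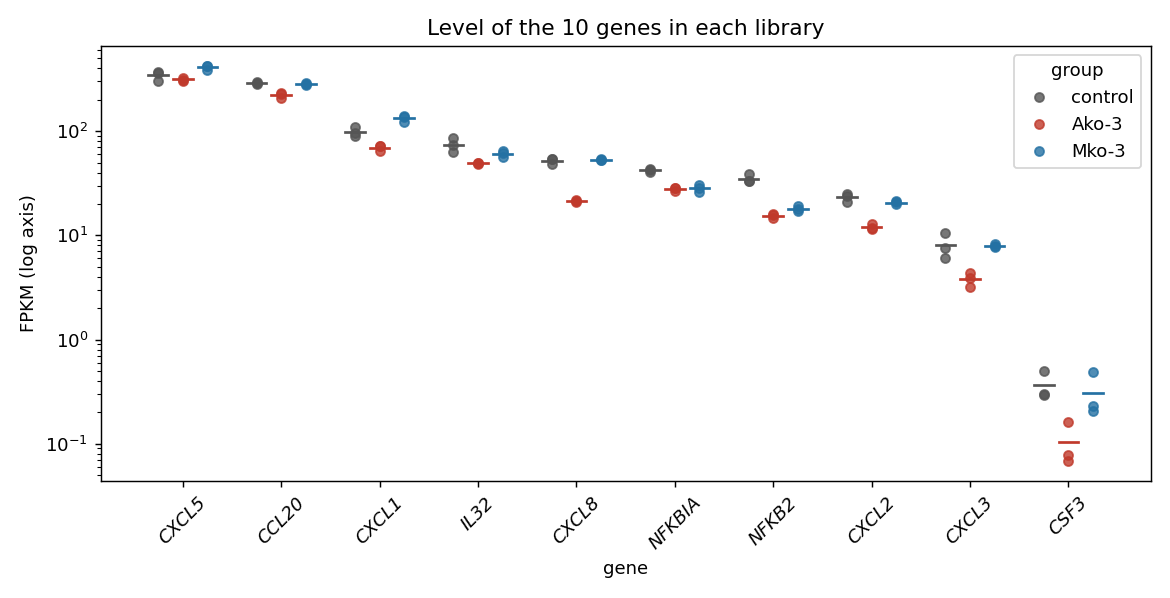
FPKM of the 10 genes in each of the 9 libraries on a log axis, with points for libraries and a short line for the mean of each group. CXCL8 lies at 48.1 to 54.5 FPKM in control, 21.0 to 21.6 in Ako-3 and 52.6 to 53.8 in Mko-3 libraries, while CSF3 lies below 1 FPKM in every library.

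In Ako-3 cells the direction was the same for all 10 genes: each had a lower fitted level than in control cells. CXCL8 was reduced by 59.1%, NFKB2 by 56.2%, CXCL3 by 53.0% and CSF3 by 72.2%, and these 4 were downregulated at both thresholds, a change of at least 1 on the log2 scale and an adjusted p of at most 0.05. Beside these 4 of 10, 8.52% of all 15787 genes tested were called in the same fit, 3.52% upregulated and 5% downregulated. With the adjusted p alone, 9 of the 10 were lower, all but CXCL5, and none was higher, beside 24.4% of all genes lower and 25.5% higher. The median log2 fold change of the 10 was -0.78, and the median of all genes tested was -0.01. All 4 downregulated genes are on pathway lists that the study drew up from these same Ako-3 and control libraries, so their direction is not independent evidence.

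In Mko-3 cells none of the 10 passed both thresholds in either direction by edgeR, by DESeq2 or by limma on the FPKM, beside 11% of 15745 genes that did by edgeR, 3.82% upregulated and 7.22% downregulated. At an unadjusted p of at most 0.05, 5 of the 10 passed, and the same 5 passed on the adjusted p. NFKB2, NFKBIA and IL32 were lower, and CXCL1 and CXCL5 were higher, and the call of IL32 was lost in 5 of its 15 alternatives. Among all genes tested, 27.1% were lower and 26.9% higher on the adjusted p alone. The median log2 fold change of the 10 was -0.11. Both knockouts were compared with the same 3 control libraries, so the values of one comparison are not independent of the other.

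CXCL8 (ENSG00000169429, hg38 chromosome 4, 73740506 to 73743716, plus strand), the main neutrophil attractant of the group, had 54.5, 53.6 and 48.1 FPKM in the control libraries. The Ako-3 libraries had 21.6, 21.4 and 21.0 FPKM, and the Mko-3 libraries 53.8, 52.6 and 53.2 FPKM. The Ako-3 libraries were all below the others, and the Mko-3 libraries lay within the control range. The log2 fold change was -1.29 (SE 0.07, edgeR adjusted p = 1.2e-11) in Ako-3 cells and 0.02 (SE 0.07, edgeR adjusted p = 0.82) in Mko-3 cells. The 95% interval of the Mko-3 difference ran from -0.11 to 0.15, and its sign turned to -0.035 without control replicate 3. Direct comparison of the clones gave a log2 difference of 1.31 (SE 0.05, edgeR adjusted p = 9.6e-34), higher in Mko-3 cells. Raw counts ran from 815 to 972 in Ako-3 libraries and from 1861 to 2328 in the others.

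CXCL1 (ENSG00000163739, chromosome 4, 73869393 to 73871242, plus strand), which signals to neutrophils through CXCR2, moved in opposite directions in the clones. It had 110, 89.3 and 96.9 FPKM in control, 71.9, 72.3 and 64.3 in Ako-3 and 136, 122 and 139 in Mko-3 libraries. The 3 groups did not overlap. The log2 fold change was -0.51 (SE 0.08, edgeR adjusted p = 1.5e-05) in Ako-3 and 0.41 (SE 0.07, edgeR adjusted p = 7.8e-05) in Mko-3 cells, both short of the threshold of 1. Between the clones it was 0.92 (SE 0.05, edgeR adjusted p = 4.9e-26), also short of 1.

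CXCL2 and CXCL3 are close relatives of CXCL1 that bind the same receptor. CXCL2 (ENSG00000081041, chromosome 4, 74097035 to 74099293, minus strand) had 24.7, 21.0 and 23.7 FPKM in control, 11.7, 12.9 and 11.4 in Ako-3 and 21.3, 20.9 and 19.8 in Mko-3 libraries. Its Ako-3 values were all below the others, with a log2 fold change of -0.95 (SE 0.10, edgeR adjusted p = 7.2e-08) that passed the threshold when control replicate 2 (-1.02) or Ako-3 replicate 2 (-1.004) was left out. The Mko-3 value of -0.18 (SE 0.09, edgeR adjusted p = 0.089) did not pass the adjusted p, but did without control replicate 2 (-0.23, edgeR adjusted p = 0.024).

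CXCL3 (ENSG00000163734, chromosome 4, 74036589 to 74038807, minus strand) had 10.5, 6.05 and 7.54 FPKM in control libraries, the widest relative spread of the chemokines there. It had 3.86, 3.19 and 4.39 FPKM in Ako-3 and 8.17, 7.89 and 7.75 FPKM in Mko-3 libraries. Every Ako-3 library lay below every other library, and the Mko-3 libraries lay inside the control range. The log2 fold change in Ako-3 cells was -1.09 (SE 0.19, edgeR adjusted p = 2.4e-04) and fell short of the threshold once control replicate 1, the highest library, was left out (-0.85) or Ako-3 replicate 2 was (-0.96). In Mko-3 cells it was -0.04 (SE 0.15, edgeR adjusted p = 0.85), with a 95% interval from -0.34 to 0.26, and it turned to 0.21 without control replicate 1. The clones differed by 1.06 (SE 0.12, edgeR adjusted p = 3.7e-12), and by 0.94 without Ako-3 replicate 2, which is short of the threshold. CXCL2 and CXCL3 are similar enough to share reads: in the GENCODE 44 transcripts, 5.34% of the 100-base stretches of CXCL2 and 3.27% of those of CXCL3 occur in the other gene, while CXCL1, CXCL5, CXCL6 and CXCL8 had no such stretch in common.

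CXCL5 (ENSG00000163735, chromosome 4, 73995642 to 73998779, minus strand), the highest of the 10, was the one gene without a difference at the adjusted p in Ako-3 cells. It had 372, 302 and 361 FPKM in control, 326, 313 and 303 in Ako-3 and 421, 391 and 425 in Mko-3 libraries. Control replicate 2 lay below all 3 Ako-3 libraries. The log2 fold change in Ako-3 cells was -0.14 (SE 0.07, edgeR adjusted p = 0.11), with a 95% interval from -0.28 to -0.00099. The interval leaves out 0 only because its normal width is too narrow, as the unadjusted edgeR p was 0.062. That CXCL5 did not pass the adjusted p rests on control replicate 2, since without that library the value was -0.23 (edgeR adjusted p = 8.7e-04). In Mko-3 cells it was 0.24 (SE 0.07, edgeR adjusted p = 5.7e-03), and every Mko-3 library lay above every control library.

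Summed over the 5 CXC chemokines, the level was 527 ± 50.7 FPKM in control, 421 ± 15.3 in Ako-3 and 627 ± 28.1 in Mko-3 cells (SD, n = 3 each), with no overlap between the groups. With 3 libraries per group the smallest p of an exact two-sided permutation test is 0.1, so the sums were not tested. CXCL5 made up 65.4% ± 1.63 of the sum in control cells, 74.7% ± 0.53 in Ako-3 cells and 65.8% ± 0.14 in Mko-3 cells. Within this sum of 5 genes, the share of CXCL5 was thus higher in all 3 Ako-3 libraries than in control. The Mko-3 libraries kept within the range of control shares. CXCL6, another CXC gene of the cluster, is not in the sum, and including it would change these shares. Its mean was 20.3 FPKM in control, 35.3 in Ako-3 and 45.4 in Mko-3 cells.

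CCL20 (ENSG00000115009, chromosome 2, about 227805740 to 227817560 with the last digit rounded, plus strand) attracts lymphocytes and dendritic cells. It had 292, 284 and 297 FPKM in control, 235, 230 and 207 in Ako-3 and 284, 278 and 291 in Mko-3 libraries. The Ako-3 libraries were all below the rest, with a log2 fold change of -0.38 (SE 0.06, edgeR adjusted p = 3.2e-05). In Mko-3 cells the value was -0.04 (edgeR adjusted p = 0.52), with a 95% interval from -0.15 to 0.07.

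The 2 cytokines outside the chemokine family differed greatly in depth. IL32 (ENSG00000008517, chromosome 16, 3065297 to 3082192, plus strand), a proinflammatory cytokine, had 86.7, 62.6 and 73.8 FPKM in control, 49.3, 49.1 and 48.9 in Ako-3 and 62.4, 56.2 and 64.5 in Mko-3 libraries. The Ako-3 libraries were all lowest, and the Mko-3 range overlapped that of control. Its log2 fold change was -0.60 (SE 0.09, edgeR adjusted p = 7.1e-05) in Ako-3 and -0.30 (SE 0.10, edgeR adjusted p = 0.022) in Mko-3 cells. The Mko-3 value ran from -0.40 to -0.17 when single libraries were left out. It no longer passed the adjusted p without control replicate 1 (-0.17, edgeR adjusted p = 0.057), control replicate 3 (-0.31, edgeR adjusted p = 0.10) or Mko-3 replicate 2 (-0.24, edgeR adjusted p = 0.091), nor by limma on log2(FPKM + 1) or log2(FPKM + 0.1) (adjusted p = 0.068 and 0.067).

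CSF3 (ENSG00000108342, chromosome 17, 40015361 to 40017813, plus strand) had only 21, 10 and 12 counts in the control libraries, 6, 3 and 3 in the Ako-3 libraries and 9, 19 and 7 in the Mko-3 libraries. All Ako-3 counts were below all others, but they are so few that the size of the change is poorly known. The log2 fold change of -1.84 had an SE of 0.52 (edgeR adjusted p = 5.7e-03). As a ratio of summed counts, corrected for library size, Ako-3 cells had 0.271 of the control level, with an exact 95% counting interval of 0.130 to 0.524 that leaves out the spread between libraries. The Mko-3 ratio was 0.835, with an interval of 0.519 to 1.34. Between the clones the ratio was 3.08, higher in Mko-3 cells, with an interval of 1.56 to 6.51. CSF3 did not reach the minimum count in the direct fit of the clones. With no filter on low counts and in 1 fit of all 9 libraries it passed both thresholds there, at 1.58 (edgeR adjusted p = 0.043 and 0.030). So 3 of the 10 genes were called in each, against 2 of 9 in the main fit, which called 5.73% of all genes. DESeq2 gave CSF3 an adjusted p of 0.12. The receptor gene CSF3R was downregulated in both clones, by -1.44 on the log2 scale in Ako-3 and -1.25 in Mko-3 cells (edgeR adjusted p = 4.7e-09 and 1.5e-08).

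The 2 NF-κB pathway genes behaved unlike the chemokines in Mko-3 cells. NFKB2 (ENSG00000077150, chromosome 10, about 102394110 to 102402530 with the last digit rounded, plus strand) encodes the precursor of the DNA-binding partner of RELB. It had 38.6, 33.1 and 33.5 FPKM in control, 15.5, 15.9 and 14.7 in Ako-3 and 19.0, 17.0 and 17.8 in Mko-3 libraries. The libraries of both clones lay below all control libraries, and those of Ako-3 below those of Mko-3. The log2 fold change was -1.19 (SE 0.07, edgeR adjusted p = 5.4e-11) in Ako-3 cells. In Mko-3 cells it was -0.98 (SE 0.07, edgeR adjusted p = 4.0e-10), just short of the threshold, which it passed when control replicate 2 or 3 (-1.01) or Mko-3 replicate 1 (-1.02) was left out. The clones differed by 0.21 (SE 0.06, edgeR adjusted p = 1.3e-03).

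NFKBIA (ENSG00000100906, chromosome 14, 35401511 to 35404749, minus strand) encodes IκBα, the inhibitor that NF-κB itself induces. It had 42.6, 43.5 and 40.4 FPKM in control, 28.6, 28.7 and 26.7 in Ako-3 and 28.8, 25.9 and 30.3 in Mko-3 libraries. Both clones lay below control and overlapped each other. The log2 fold changes were -0.60 (SE 0.07, edgeR adjusted p = 4.1e-07) in Ako-3 and -0.59 (SE 0.07, edgeR adjusted p = 5.7e-07) in Mko-3 cells. Between the clones the value was 0.01, with a 95% interval from -0.11 to 0.12, and its sign changed when Ako-3 replicate 3, Mko-3 replicate 1 or Mko-3 replicate 3 was left out.

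**Figure D3:**
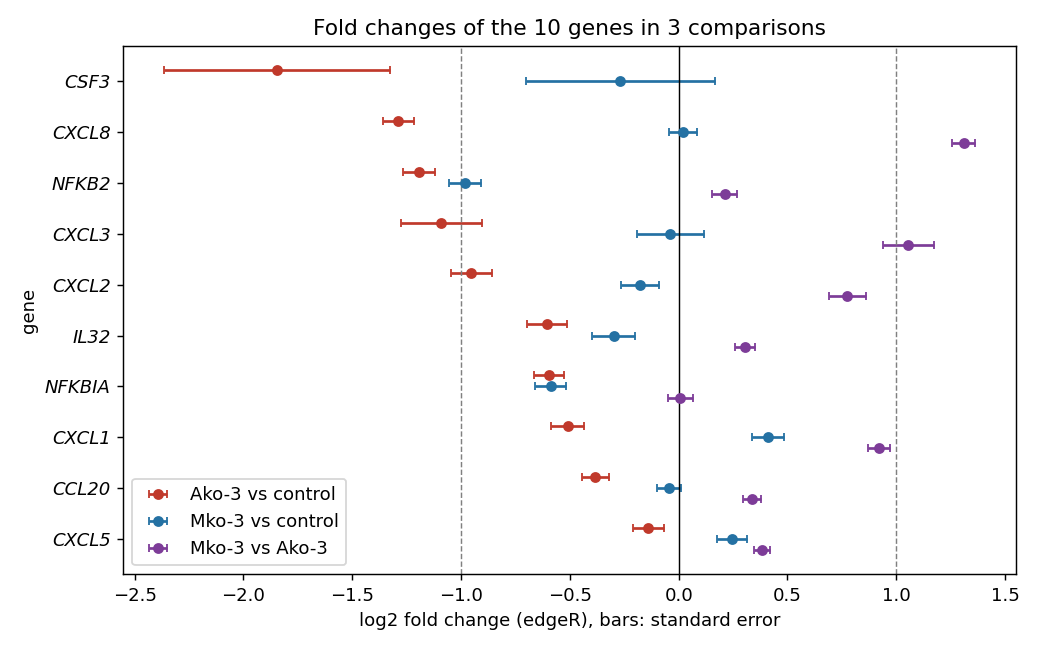
Log2 fold changes of the 10 genes from edgeR with standard errors as bars, with dashed lines at the thresholds of -1 and 1. All Ako-3 values against control lie below 0, while the Mko-3 values against control run from -0.98 for NFKB2 to 0.41 for CXCL1, and CSF3 has no value in the direct comparison of the clones.

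Set directly against each other, Mko-3 cells had the higher level of all 9 genes tested. CXCL8 and CXCL3 passed both thresholds, which is 2 of 9 beside 5.73% of 15528 genes, 2.26% higher and 3.47% lower in Mko-3 cells. On the adjusted p alone 8 of 9 were higher, all but NFKBIA, and none lower, beside 21.1% of all genes higher and 20.6% lower. In the same 8 genes every Mko-3 library lay above every Ako-3 library, beside 25.6% of all genes tested. Against control cells, all Ako-3 libraries were below all control libraries for 9 of the 10 genes, beside 28% of all genes, and for Mko-3 cells the groups separated for 2 genes upward and 2 downward, beside 30.9% and 29.8%.

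The 5 CXC genes lie within 359 kb on chromosome 4, and the genes within 1 Mb of this stretch did not move with them as a block. Of 40 neighbours 13 could be tested in Ako-3 cells, and 2 were downregulated, AREG and EREG. AREG, an EGF receptor ligand on the study's lists, had 19.1, 9.62 and 15.9 FPKM in control, 2.64, 3.38 and 2.47 in Ako-3 and 15.5, 11.5 and 14.6 in Mko-3 libraries. Its log2 fold change was -2.40 (edgeR adjusted p = 1.1e-04) in Ako-3 and -0.12 (edgeR adjusted p = 0.73) in Mko-3 cells. EREG, another EGF receptor ligand, had 10 to 16 counts in control and at most 3 counts in each Ako-3 library, so no fold change is given there. In Mko-3 cells 12 neighbours were tested, and CXCL6 was upregulated and EREG, with 3, 3 and 6 counts, downregulated. Of all genes tested, 3.52% were upregulated and 5% downregulated in Ako-3 cells, and 3.82% and 7.22% in Mko-3 cells. The median of the neighbours was 0.00 in Ako-3 and 0.15 in Mko-3 cells.

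CXCL6, between CXCL8 and CXCL1, was higher in both clones, opposite in Ako-3 cells to the CXC genes that changed there. It had 23.6, 17.6 and 19.6 FPKM in control, 37.1, 36.2 and 32.4 in Ako-3 and 46.3, 41.5 and 48.3 in Mko-3 libraries, with no overlap between the groups. Its log2 fold change was 0.79 (SE 0.09, edgeR adjusted p = 1.2e-06) in Ako-3 and 1.15 (SE 0.09, edgeR adjusted p = 7.8e-09) in Mko-3 cells. The promoters of CXCL5 and CXCL6, printed above, differ in 10 of the 100 bases compared, and in Ako-3 cells CXCL6 passed the adjusted p upward while CXCL5 was at -0.14. ALB and AFP, the abundant albumin-family genes on the other side of CXCL8, had log2 fold changes of 0.02 and 0.15 in Ako-3 cells and of -0.49 and 0.80 in Mko-3 cells.

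**Figure D4:**
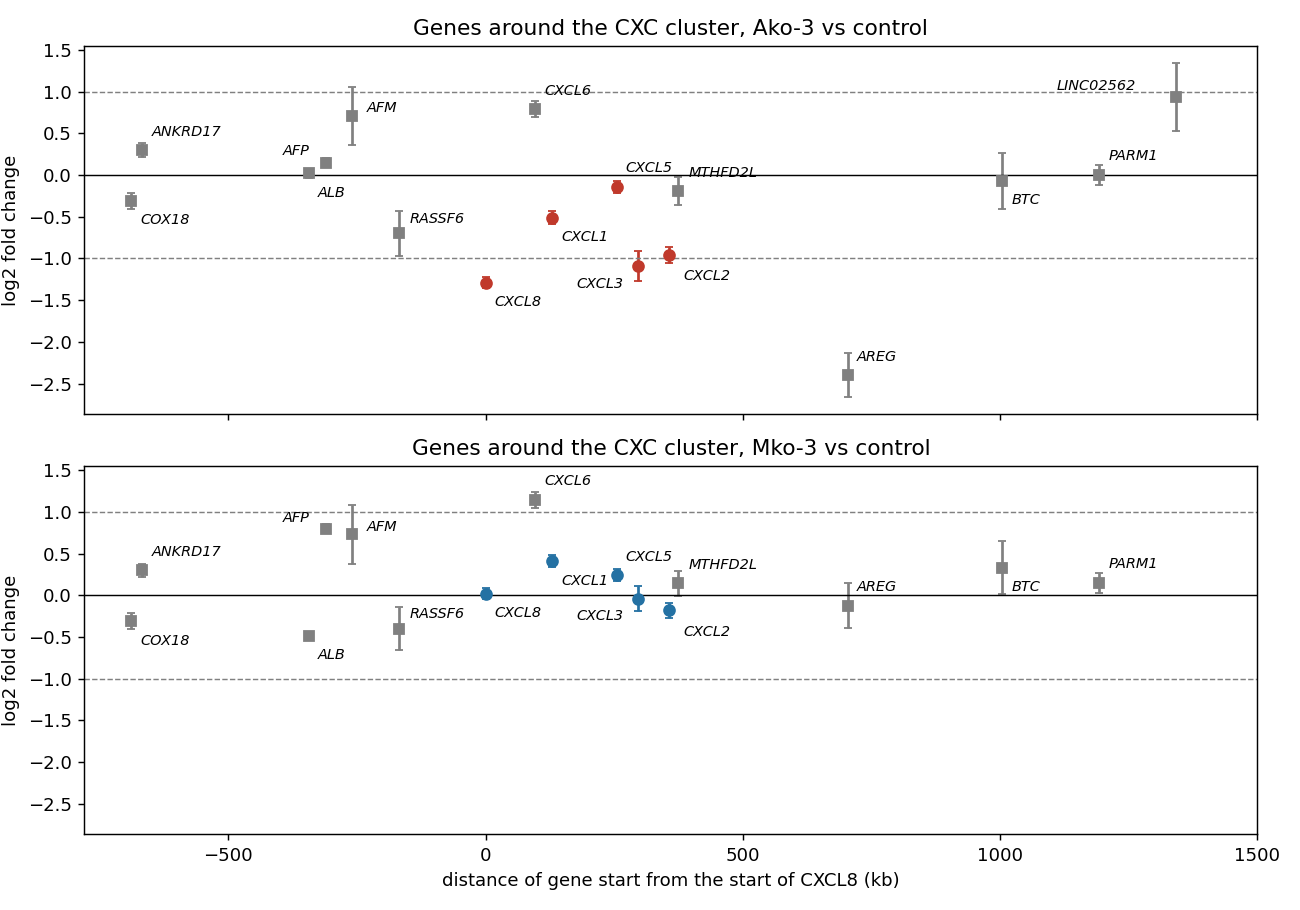
Log2 fold change with standard error of each tested gene around the CXC cluster against the distance of its start from that of CXCL8, with circles for the genes described here and squares for their neighbours. In the upper plot CXCL8, CXCL3 and AREG lie below -1 and CXCL6 lies at 0.79, and in the lower plot CXCL6 lies at 1.15, while EREG, which is at the detection limit in Ako-3 cells, is left out of both.

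Other genes of the pathway were read in 7 lists drawn up with results of these data already known. Without the 10 genes they hold 168 genes, of which 116 could be tested against control in Ako-3 cells: 3 were upregulated and 11 downregulated. Of 115 tested in Mko-3 cells, 6 were upregulated and 18 downregulated. The medians were -0.10 and -0.04, and those of all genes were -0.01 in both. Called among all genes tested were 8.52% in Ako-3 cells, 3.52% upregulated and 5% downregulated. In Mko-3 cells 11% were called, 3.82% upregulated and 7.22% downregulated. These shares stand beside the counts of each list below.

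Of the 9 further NF-κB subunits and IκB proteins, all tested, 2 were downregulated in each clone, RELB and BCL3. RELB, the partner of NFKB2, had 13.9, 11.8 and 12.7 FPKM in control, 4.19, 4.45 and 4.40 in Ako-3 and 5.14, 5.26 and 5.84 in Mko-3 libraries, with log2 fold changes of -1.56 (edgeR adjusted p = 6.1e-11) and -1.26 (edgeR adjusted p = 6.5e-10). BCL3, a nuclear IκB protein, had 82.5, 76.9 and 70.7 FPKM in control, 39.1, 38.6 and 37.0 in Ako-3 and 39.2, 37.4 and 38.4 in Mko-3 libraries, a log2 fold change of -1.01 in each clone (edgeR adjusted p = 1.6e-10 and 6.1e-11). In both genes the clones lay below all control libraries, as for NFKB2. NFKBIE and NFKBIB, 2 more inhibitors, had log2 fold changes of -0.63 and -0.28 in Ako-3 and of -0.41 and -0.57 in Mko-3 cells, and all 4 values passed the adjusted p alone. NFKBIZ, which promotes some NF-κB targets, had 0.21 in Ako-3 and -0.19 in Mko-3 cells. The median of the list was -0.28 in Ako-3 and -0.29 in Mko-3 cells. RELA, the subunit most often found in active dimers, had 0.02 and 0.09 (edgeR adjusted p = 0.83 and 0.27), and it was named after its values were seen.

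Among 38 other chemokine ligands 8 were tested, and their median was 0.67 in Ako-3 and 0.53 in Mko-3 cells, above 0 where the median of the 10 genes was below it. CXCL10, an interferon-induced lymphocyte chemokine, was the one called in Ako-3 cells, rising from 2.47 ± 0.61 to 10.1 ± 0.63 FPKM (SD, n = 3 each), or 2.01 on the log2 scale (edgeR adjusted p = 8.3e-09). In Mko-3 cells it had 3.62 ± 0.31 FPKM and a log2 fold change of 0.53. In Mko-3 cells CXCL6, CX3CL1 and CCL28 were upregulated and CCL16 and XCL1 downregulated. CX3CL1, a membrane-bound chemokine, rose by 0.74 on the log2 scale in Ako-3 and by 1.10 in Mko-3 cells (edgeR adjusted p = 4.9e-08 and 1.2e-10). CCL16, a liver-expressed chemokine, had 0.68 and -1.52, and CXCL16 had -0.30 and 0.04. CCL28 at 1.20 and XCL1 at -1.36 in Mko-3 cells fall outside the naming rule and were named after their values were seen.

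Of 9 receptors and surface binders for these ligands 5 were tested, and CSF3R was the one gene called. The syndecans, proteoglycans that hold chemokines at the cell surface, differed in sign: the log2 fold changes of SDC4 were -0.64 in Ako-3 and -0.52 in Mko-3 cells, and those of SDC1 0.41 and 0.28, and all 4 passed the adjusted p alone. ACKR2, a chemokine scavenger, and CCR6, the receptor of CCL20, did not pass in any comparison. The list's median was 0.40 in Ako-3 and 0.28 in Mko-3 cells.

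The 41 upstream receptors, adaptors and kinases had a median of 0.00 in Ako-3 and 0.03 in Mko-3 cells over 38 genes tested, with changes in both directions. On the adjusted p alone 8 passed upward and 10 downward in Ako-3 cells, beside 25.5% and 24.4% of all genes. In Mko-3 cells 12 passed upward and 9 downward, beside 26.9% and 27.1% of all genes. TNFRSF13C was downregulated in both clones, at -2.02 and -2.24, and in Mko-3 cells TLR2 was downregulated at -2.01 and TLR3 upregulated at 1.13. These 3 were named after their values were seen. TNFRSF12A, the receptor of TWEAK, had -0.81 in Ako-3 and 0.51 in Mko-3 cells, opposite signs that both passed the adjusted p. IRAK1 and IRAK3, of interleukin-1 receptor signaling, had 0.02 and 0.22 in Ako-3 and 0.54 and -0.64 in Mko-3 cells. TAB3, an adaptor of the kinase TAK1, had -0.51 and 0.01, and LTBR, the lymphotoxin receptor, -0.25 and 0.21.

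Of 13 feedback inhibitors 12 were tested, and NLRC5 was called, upregulated in Ako-3 cells at 1.94 (edgeR adjusted p = 1.6e-04) from a level of 0.0477 ± 0.012 FPKM in control (SD, n = 3). CYLD, a deubiquitinase that restrains NF-κB, had -0.68 in Ako-3 and 0.00 in Mko-3 cells. SIGIRR had -0.51 and -0.49, TANK -0.36 and -0.24, and ZC3H12A, an RNase that degrades cytokine transcripts, -0.20 and 0.02. The list's median was -0.15 in Ako-3 and -0.01 in Mko-3 cells.

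Among 46 other NF-κB target genes 33 were tested in Ako-3 cells: 1 was upregulated, 3 were downregulated, and the median was -0.43. Of 32 tested in Mko-3 cells 2 were upregulated and 6 downregulated, with a median of -0.36. The genes called in Ako-3 cells were IL33, upregulated, and BIRC3, TNFRSF9 and GADD45B, downregulated. They fall outside the naming rule and were named after their values were seen. Over all pathway lists 3 genes were upregulated in Ako-3 cells, but only 1 with at least 10 counts in every library. The upregulated call of IL33 may therefore rest on few counts. Within the rule, SAA2, an acute phase protein, had -0.14 in Ako-3 and -1.29 in Mko-3 cells (edgeR adjusted p = 0.40 and 6.3e-06), and its near-identical copy SAA1 makes the split of reads uncertain. LCN2, which binds bacterial siderophores, had 0.13 and -0.95, neither past the adjusted p. IER3 had -0.43 and 0.25 and TNFAIP8 -0.60 and 0.32, genes lower in Ako-3 and higher in Mko-3 cells, and all 4 values passed the adjusted p.

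The AP-1 and C/EBP factors, which act with NF-κB at chemokine promoters, were mostly lower in both clones. Of 14 genes 13 were tested, with 4 downregulated in Ako-3 and 5 in Mko-3 cells, beside 5% and 7.22% of all genes, none upregulated, and medians of -0.75 and -0.67. On the adjusted p alone 8 passed downward and 1 upward in Ako-3 cells and 10 downward and 0 upward in Mko-3 cells, beside 24.4% and 27.1% of all genes lower. ATF3 had 12.1 ± 1.1 FPKM in control, 3.19 ± 0.20 in Ako-3 and 5.16 ± 0.13 in Mko-3 cells (SD, n = 3 each), with log2 fold changes of -1.92 and -1.24 (edgeR adjusted p = 2.6e-12 and 2.4e-10). JUN, a subunit of AP-1, had -1.27 in Ako-3 and -0.81 in Mko-3 cells, and CEBPB had -0.75 and -1.29. CEBPD had -0.06 and -0.67, and CEBPA, a factor of hepatocyte differentiation, had 0.48 and -0.08. The other genes called were JUNB and DDIT3 in Ako-3 cells and FOSB, CEBPG and DDIT3 in Mko-3 cells, named after their values were seen. JUN, RELB, DDIT3, GADD45B, CSF3R and AREG are also on the study's lists from the Ako-3 and control libraries.

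**Figure D5:**
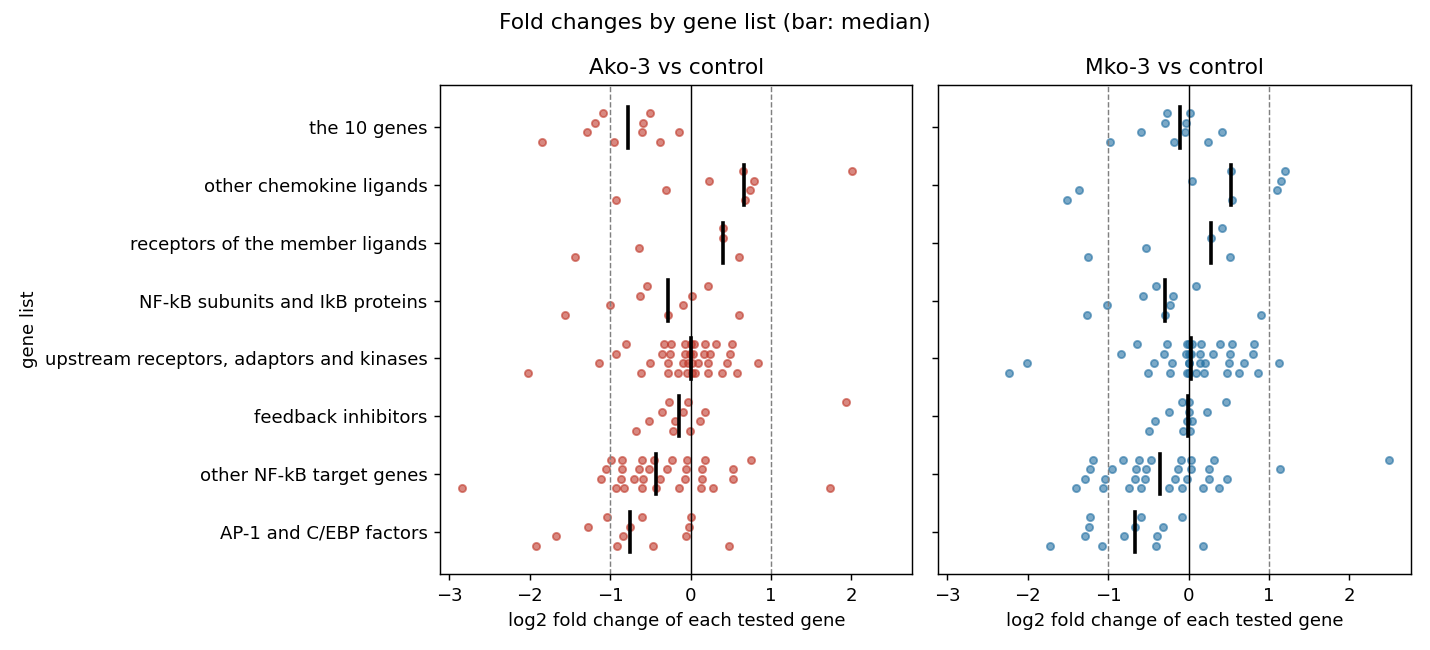
Log2 fold change of each tested gene in the 10 genes described and in 7 lists of the pathway, with a bar at the median of each list and dashed lines at -1 and 1. In Ako-3 cells the medians are -0.78 for the 10 genes and 0.67 for the other chemokine ligands, and in Mko-3 cells -0.11 and 0.53.

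Across the 9 libraries, the genes whose levels followed CXCL8 most closely, among 14331 genes with a mean of at least 1 CPM, were EPHA2, TXLNG, ARHGEF16, DUSP5 and FLNC, with Pearson's r of 0.990 to 0.996 on log2(CPM + 1). They were low in Ako-3 and near control in Mko-3 cells, and EPHA2, DUSP5 and FLNC are on the study's lists. EPHA2, a receptor tyrosine kinase, had a mean of 58.4 FPKM in control, 28.3 in Ako-3 and 57.4 in Mko-3 cells, and DUSP5, a phosphatase of ERK, had 9.71, 3.01 and 10.2. The genes closest to NFKB2 were EBF4, UAP1L1, ZNF277, MAPK8IP3 and MAP3K10, with r of 0.992 to 0.996, low in both clones, as for EBF4 with 9.99, 2.93 and 3.66 FPKM. The libraries share their group differences, so r here describes a pattern over 3 groups of 3 libraries and has no test.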

How the data were processed

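Poly-A RNA libraries of 3 groups with 3 libraries each were analysed: control Huh-7, Ako-3 and Mko-3 cells, grouped by the labels, which name no batch. To make the count table, the authors used HISAT2 2.0.5 on hg38 and featureCounts 1.5.0-p3 for gene counts, which they deposited raw. The annotation release and the strand setting are not given in the sources used here, so that reads of overlapping genes on opposite strands may be shared. The authors also deposited FPKM values. From the values, these are the counts divided by gene length and by DESeq2 size factors over all 9 libraries times a constant, so that FPKM can be compared across groups.

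Differential expression was tested on the counts of the 6 libraries of each comparison with edgeR 4.0.16 in R 4.3.3: TMM factors, filterByExpr (minimum count 10), a robust quasi-likelihood fit with its F test, and Benjamini-Hochberg adjustment over all genes tested. Calls needed a log2 change of 1 or more in either direction and an adjusted p of at most 0.05. The standard error is the fold change divided by the square root of F, and 95% intervals are 1.96 standard errors on each side. This normal width is narrower than the F test with few libraries implies, so the intervals are approximate. At most 3 counts in every library of a group was taken as the floor. Alternatives were DESeq2 1.42.0, edgeR with RLE factors, limma 3.58.1 on log2(FPKM + 1) and log2(FPKM + 0.1), other filters, 1 fit of all 9 libraries, a replicate block and leaving out each library. The scripts were tested on simulated data.

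The members, gene lists and tests were chosen with earlier results of these data known. Named were the 10 genes, the up to 5 genes per list whose adjusted p was smallest in any comparison, markers by range, the 5 genes most like CXCL8 and NFKB2, called neighbours within 1 Mb on chromosome 4, and APOB and MTTP. Promoter sequences are from RefSeq on GRCh38.p14. No 2 libraries of a group agreed within counting error. Total counts of 14638727 to 20179760 make genes near 10 counts imprecise, and p-values cover the spread between libraries of 1 line or clone. CPM were TMM-normalized over all 9 libraries.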

Additional observations from a re-analysis of the deposited data

Results flagged for a closer look

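The 2 clones differed from each other, in the direct edgeR test of Mko-3 against Ako-3 libraries, in 8 of the 9 genes tested at the adjusted p. The log2 differences, higher in Mko-3 cells, were 1.31 for CXCL8, 1.06 for CXCL3, 0.92 for CXCL1, 0.78 for CXCL2, 0.38 for CXCL5, 0.34 for CCL20, 0.31 for IL32 and 0.21 for NFKB2. Each had all 3 Mko-3 libraries above all 3 Ako-3 libraries. Among all genes tested, 21.1% were higher and 20.6% lower in Mko-3 cells on the adjusted p alone. The libraries separated upward in the same way for 25.6% of all genes. CXCL1 was lower than control in Ako-3 and higher than control in Mko-3 cells.

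Other genes of the pathway differed between the clones past both thresholds. TNFRSF12A at 1.32 and AREG, a neighbour of the CXC cluster, at 2.28 were higher in Mko-3 cells. CXCL10 at -1.48, CCL16 at -2.20, NLRC5 at -1.48, LCN2 at -1.09 and SAA2 at -1.15 were lower in Mko-3 cells. NLRC5 lies below 1 FPKM in all groups.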

How the results depend on the processing

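With edgeR on RLE factors, with DESeq2 and with a replicate block, the number of the 10 genes called was again 4 in Ako-3 cells, 0 in Mko-3 cells and 2 between the clones. Libraries with the same replicate number deviated together with r of -0.12 to 0.10, and those with different numbers with r of -0.11 to 0.13. With so few libraries per group, these values cannot decide whether the replicate numbers pair libraries. With the replicate block all genes called numbered 1336, 1730 and 899 and pathway genes 14, 24 and 12. On log2(FPKM + 1), which shrinks low genes, 2, 0 and 1 of the 10 were called, with 317, 429 and 200 of all genes, 6, 9 and 6 of the pathway genes, and 1 neighbour on chromosome 4 in each knockout. CXCL3 then had -0.89 and CSF3 -0.31 in Ako-3 cells, short of the threshold, and CXCL3 had 0.90 between the clones. On log2(FPKM + 0.1) 1 neighbour was called in each knockout. At the adjusted p alone 9, 5 and 8 of the 10 passed, with 7880, 8509 and 6462 of all genes, 69, 70 and 63 of the pathway genes and 7, 6 and 4 neighbours. With at least 10 counts in every library, 841, 1113 and 511 of all genes were called and 1 neighbour in each knockout. This filter also drops genes with few counts in only 1 group. It left 14232 genes to test in Ako-3 and 14080 in Mko-3 cells, against 15787 and 15745 in the main fit. DESeq2 called 1 neighbour in Mko-3 cells.

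Leaving out each library gave 3 to 5 of the 10 genes in Ako-3 cells, 0 to 1 in Mko-3 cells and 1 to 2 between the clones. It gave 1254 to 1637, 1623 to 2106 and 895 to 964 of all genes, 11 to 17, 20 to 26 and 10 to 13 pathway genes, and 2 to 3, 1 to 2 and 1 to 2 neighbours. The sign turned for values close to 0. In Mko-3 against control cells CXCL8 ran from -0.035 (without control replicate 3) to 0.057, CXCL3 from -0.19 to 0.21 and CSF3 from -0.76 to 0.048 (both highest without control replicate 1), and CXCL3 turned to 0.014 on log2(FPKM + 1) and 0.019 on log2(FPKM + 0.1). Between the clones NFKBIA ran from -0.039 to 0.068 and was below 0 without Ako-3 replicate 3, Mko-3 replicate 1 or Mko-3 replicate 3. The cause was not tested. The 5 genes most like CXCL8 and the 5 most like NFKB2 were the same with a pseudocount of 0.1.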
